A study of Mus musculus with 6 samples.

Results

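The Nlrp4, Nlrp9 and Nlrp14 genes were described here across full-grown mouse oocytes of a Pan2 study. They were taken from the count table by gene name, as Nlrp4a, Nlrp4b, Nlrp4c, Nlrp4d, Nlrp4e, Nlrp4f, Nlrp9a, Nlrp9b, Nlrp9c and Nlrp14, which made 10 of its 55291 genes. The rule that picks them uses names and no measured value, though the family was proposed with earlier results of these data known. PAN2 is the nuclease of the PAN2-PAN3 complex, a deadenylase that removes adenosines from the tails of messenger RNA. The KO group had 3 libraries (KO 1, KO 2 and KO 3). The WT group had 3 labelled samples, of which WT 1 was compared, WT 2 was set aside for the reason given below and WT 3 was not analysed here.

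Every library was labelled as full-grown oocyte with the genotype KO or WT only. The series text speaks of a maternal deletion of Pan2 and names zygotes and 2-cell embryos, whereas the sample labels name oocytes. The sources used here do not give the allele, the deleted part of Pan2, any Cre driver, the strain, the age or the number of oocytes pooled in a library. Replicates were not said to come from separate animals, so the p-values rest on the differences among these libraries alone, and that spread may be technical. cDNA was made by Smart-seq2, a low-input method that starts reverse transcription from oligo(dT) at the poly(A) tail, and the length of that tail was not measured here.

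NLRP proteins carry an N-terminal pyrin domain, a central NACHT domain that binds nucleotide and C-terminal leucine-rich repeats. Some members, such as NLRP3, are sensors that assemble inflammasomes in immune cells, while a reproductive branch is expressed in oocytes and early embryos and is counted among the maternal-effect genes. In rodents this branch has expanded into several Nlrp4 and Nlrp9 copies, so its genes are close paralogues of each other.

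Of these genes, 9 lie on chromosome 7 and Nlrp4f lies on chromosome 13 (chr13:65177111-65205977, minus strand, mm10, the build of the count table). Nlrp9c (chr7:26322473-26403700, minus strand), Nlrp4a (chr7:26435113-26476142, plus strand) and Nlrp9a (chr7:26535023-26575615, plus strand) are neighbours, with gaps of 31.4 kb between Nlrp9c and Nlrp4a and of 58.9 kb between Nlrp4a and Nlrp9a. Nlrp4c (chr7:6045161-6105150), Nlrp4b (chr7:10687789-10730168), Nlrp9b (chr7:19991465-20073306) and Nlrp4e (chr7:23301192-23362277) lie apart from them on the plus strand. Nlrp14 (chr7:107166990-107198102, plus strand) is 80.6 Mb beyond Nlrp9a. Nlrp4d (chr7:10358873-10388935, minus strand) is annotated as an unprocessed pseudogene, and the other 9 as protein-coding. Their main transcripts had 9 to 11 exons and coding sequences of 2589 to 3012 bases.

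The sequences before the starts are shown because Nlrp9a and Nlrp9c, which lie on either side of Nlrp4a, share most of theirs. The window of Nlrp9b, of the same subfamily, does not share it, but that window lies inside the Nlrp9b gene model of the count table. The sequence before the start of that model was not examined. RefSeq promoter windows (GRCm38.p6, the same build as mm10) matched 8 of the 10 genes by symbol, in 10 windows. The 250 bases before the annotated start are printed 5′ to 3′ on the strand of the gene, in lower case, with each CCAAT and its reverse complement ATTGG in capitals. CCAAT is the core of the CCAAT box.

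Nlrp9a: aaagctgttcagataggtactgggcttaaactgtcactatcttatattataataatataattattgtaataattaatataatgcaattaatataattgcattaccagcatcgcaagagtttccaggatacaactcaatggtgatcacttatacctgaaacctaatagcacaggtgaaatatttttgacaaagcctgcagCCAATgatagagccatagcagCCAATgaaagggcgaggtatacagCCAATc
Nlrp9c: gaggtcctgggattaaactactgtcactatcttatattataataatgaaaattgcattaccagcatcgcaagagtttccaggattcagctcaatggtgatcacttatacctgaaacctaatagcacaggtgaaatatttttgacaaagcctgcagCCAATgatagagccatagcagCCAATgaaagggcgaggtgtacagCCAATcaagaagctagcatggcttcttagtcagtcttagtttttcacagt
Nlrp9b: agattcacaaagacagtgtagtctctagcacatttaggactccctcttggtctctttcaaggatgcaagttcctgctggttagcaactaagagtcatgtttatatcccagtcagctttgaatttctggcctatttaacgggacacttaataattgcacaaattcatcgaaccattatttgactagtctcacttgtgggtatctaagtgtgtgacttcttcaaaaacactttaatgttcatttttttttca
Nlrp4b: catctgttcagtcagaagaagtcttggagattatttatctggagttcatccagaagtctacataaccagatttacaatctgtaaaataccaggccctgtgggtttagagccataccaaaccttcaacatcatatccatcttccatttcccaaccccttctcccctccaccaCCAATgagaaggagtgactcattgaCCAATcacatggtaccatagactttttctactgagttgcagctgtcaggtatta
Nlrp4c: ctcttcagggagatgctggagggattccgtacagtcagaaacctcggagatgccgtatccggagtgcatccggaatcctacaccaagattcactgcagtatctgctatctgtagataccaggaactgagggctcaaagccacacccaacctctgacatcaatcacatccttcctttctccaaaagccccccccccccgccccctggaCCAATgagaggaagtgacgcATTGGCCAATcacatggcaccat

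These windows are chr7:26534773-26535022 for Nlrp9a (plus strand), chr7:26403701-26403950 for Nlrp9c (minus strand), chr7:20007773-20008022 for Nlrp9b (plus strand), chr7:10687543-10687792 for Nlrp4b (plus strand, the first of 2 annotated starts) and chr7:6044911-6045160 for Nlrp4c (plus strand). Local alignment of the Nlrp9c and Nlrp9a windows covered 202 bases, of which 195 (96.5%) were identical, and both windows hold CCAAT 3 times on the strand of the gene. The Nlrp9b window, whose start lies inside the longer gene model of the count table, holds neither CCAAT nor ATTGG, and it aligned over only 14 bases with Nlrp9a and 13 with Nlrp9c. Nlrp4c, with 3 matches, and Nlrp4b, with 2, aligned over 208 bases at 77.4% identity, and the second window of Nlrp4a aligned with Nlrp4b over 222 bases at 79.3%. Among all 32851 windows of the same length, 33.8% held at least 1 match on either strand, 10.1% at least 2 and 2.79% at least 3. Nlrp4e held 1 match, the 2 windows of Nlrp4a held 0 and 1, and Nlrp4f held 0. The motifs TAATTG and CANNTG (N, any base) were also counted. TAATTG occurred 2 times in the Nlrp9a window, 1 time in that of Nlrp9b and 0 times in that of Nlrp9c. Of all windows, 7.17% held it at least 1 time and 0.511% at least 2 times. CANNTG occurred 1 time in each of these windows, and at least 1 time in 66.2% of all windows. A match describes the letters and shows no binding.

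Coding sequences grouped by subfamily. Identity of the aligned bases was 77.8% to 93.9% among the Nlrp4 genes, with Nlrp4c and Nlrp4e the closest pair, and 82.3% to 87.4% among the Nlrp9 genes, with Nlrp9a and Nlrp9c the closest. Between the subfamilies, and between either of them and Nlrp14, it was 57.5% to 61.3%.

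**Figure D1:**
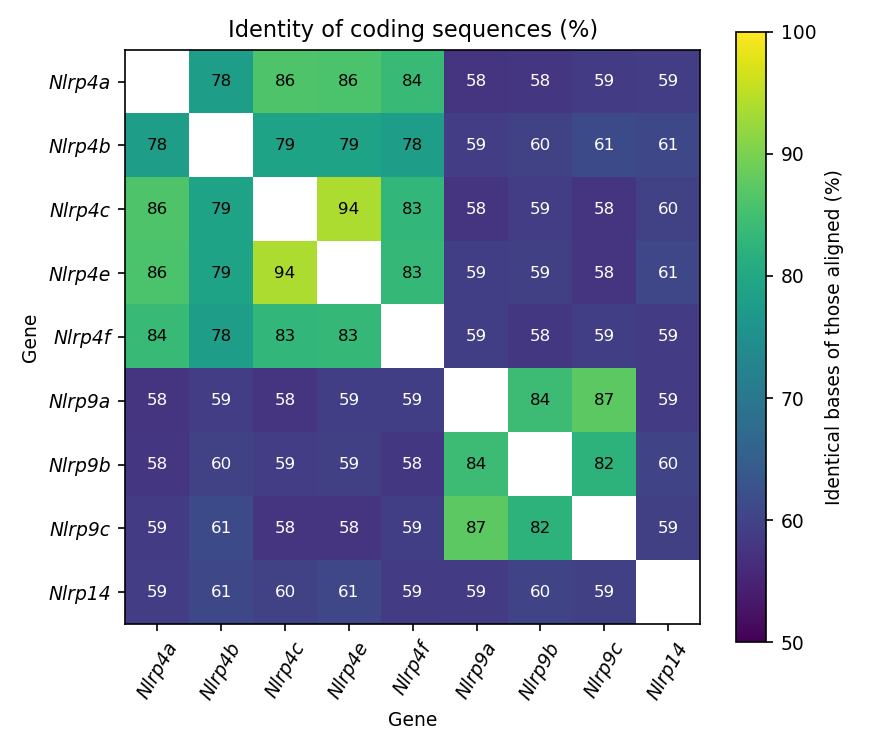
Percent of identical bases among aligned bases for each pair of coding sequences of the 9 protein-coding genes, with gene names on both axes and colour from 50% to 100%. The Nlrp4 block and the Nlrp9 block stand out from the pairs between subfamilies, which lie at 57.5% to 61.3%.

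The sources used here do not say how reads that match several paralogues were counted. At the read length of 151 bases, 9 of the 10 genes had 0 windows of their transcripts in common with a transcript of another gene. Nlrp4e had 107 of 3250 windows (3.29%) in common with the gene models Gm16443, Gm4541, Gm8486, Gm8685 and Gm8728. At 50 bases, the length of a short alignment, the shared part was 36.7% for Nlrp4e, 10.7% for Nlrp4c, 7.79% for Nlrp9b, 6.07% for Nlrp9a, 5.95% for Nlrp4f, 2.63% for Nlrp4a and 2.61% for Nlrp9c. Nlrp4b and Nlrp14 shared 0 windows at either length. Counts of Nlrp4e and Nlrp4c are therefore the least certain of the family.

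The libraries held 12038990 counts in KO 1, 23359636 in KO 2, 26770521 in KO 3 and 23485093 in WT 1. Log2 CPM (counts scaled to a library total of 1e6) of these libraries correlated at 0.957 to 0.991 across genes, which are not independent replicates, and KO 2 with KO 3 was the closest pair. The WT 2 column held 3785574 counts and correlated at 0.178 to 0.188 with the other columns. It was left out because it does not follow the gene models. For example, the oocyte markers Gdf9 and Zp3 had 0 counts in it. The family had 313 counts in that column, which was not the reason for leaving it out. Pan2 had 44.6, 11.9 and 34.0 CPM in KO 1 to KO 3, against 77.5 CPM in WT 1. The KO libraries were all lower, a pattern shared by 29.2% of all genes tested. The difference missed the threshold (log2 fold change -1.37 ± 0.53 SE, adjusted p = 0.301, edgeR quasi-likelihood test). Oocyte markers such as Gdf9 and Zp3 were abundant, the 10 of them together taking 2.26% to 2.64% of counts in KO libraries and 2.61% in WT 1, and 0 of 10 passed the test (median log2 fold change -0.07).

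The question set by the design was whether these maternal transcripts differ in level in Pan2 KO oocytes. In the comparison of the 3 KO libraries with WT 1, no gene of the family passed the test. Nlrp4d had no counts and was not tested. Of the 9 tested, 0 were called at an adjusted p below 0.05 and 0 had an unadjusted p below 0.05 by edgeR's quasi-likelihood test, while 344 of all 17799 genes tested were called (1.93%; 1.32% higher and 0.612% lower in KO) and 2369 had an unadjusted p below 0.05. DESeq2 and limma-voom also called 0 of the 9, and called 4.58% and 1.3% of all genes. The family's median log2 fold change was 0.20, against 0.02 over all genes tested, and 8 of the 9 estimates were above 0. Among these, Nlrp4a at 0.02 and Nlrp4c, which rounds to 0, had no stable sign across settings. WT 1 was the only WT library in this fit, so it was assumed to vary as the KO libraries do.

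The levels below are CPM on library sizes scaled by TMM, which corrects for the makeup of a library. A level in bulk oocytes is a share of the library, so fewer cells of a type and less RNA per cell cannot be told apart.

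Nlrp14 is the family's most abundant transcript. The protein is needed in the mouse egg for development beyond the first cleavages and has been reported to stabilise UHRF1 and to take part in calcium handling through the mitochondrial exchanger SLC8B1. It had 3339, 4432 and 5372 CPM in KO 1, KO 2 and KO 3, against 3494 CPM in WT 1. KO 1 lay just below WT 1 and the other KO libraries above it, so the groups overlapped. The KO mean was 4381 ± 1020 CPM (SD, n = 3), and the log2 fold change of 0.33 ± 0.36 (SE) missed the threshold (adjusted p = 0.748).

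Nlrp4f comes next in level. Its protein binds the subcortical maternal complex, a protein assembly at the cortex of the mouse egg, and its loss disturbs the cytoplasmic lattices. It had 1342, 1811 and 1711 CPM in KO 1, KO 2 and KO 3, against 1411 CPM in WT 1. Again KO 1 was lowest and the other KO libraries were above WT 1. The KO mean of 1621 ± 247 CPM (SD, n = 3) was not distinguished from WT 1 (log2 fold change 0.20 ± 0.33 SE, adjusted p = 0.837).

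Nlrp4a and Nlrp4b, ovary-expressed paralogues whose roles in the egg are less well known, stayed close to WT 1 in every KO library. Nlrp4a had 730.6, 810.4 and 816.9 CPM in KO 1, KO 2 and KO 3, against 773.1 CPM in WT 1, and Nlrp4b had 443.5, 572.5 and 590.3 CPM in KO 1, KO 2 and KO 3, against 486.4 CPM in WT 1. WT 1 fell inside the KO range for both. The log2 fold change was 0.02 ± 0.30 (SE) for Nlrp4a, with an adjusted p of 0.983, and 0.14 ± 0.32 (SE) for Nlrp4b, with an adjusted p of 0.895. The estimate for Nlrp4a moved to -0.01 with library size as the only scaling, so it has no settled sign.

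Nlrp4c was the weakest transcript with reads. It had 30.2, 35.3 and 43.7 CPM in KO 1, KO 2 and KO 3, against 36.4 CPM in WT 1. WT 1 stood between KO 2 and KO 3, and the log2 fold change was 0 ± 0.35 (SE, adjusted p = 0.998), or -0.04 with library size as the only scaling. Nlrp4d, the pseudogene, had 0 counts in all 4 libraries, which allows up to 0.249, 0.128 and 0.112 CPM in KO 1, KO 2 and KO 3 and 0.128 CPM in WT 1 (3 counts per library, counting error only).

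Nlrp4e was the only gene of the family with a negative estimate. Its knockdown in mouse zygotes has been reported to stop development before the blastocyst. It had 161.7, 238.9 and 157.3 CPM in KO 1, KO 2 and KO 3, against 288.1 CPM in WT 1. All 3 KO libraries were below WT 1, a pattern shared by 29.2% of all genes tested. The KO mean was 186 ± 45.9 CPM (SD, n = 3). The log2 fold change was -0.63 ± 0.33 (SE), an approximate 95% interval of -1.28 to 0.02, and missed the threshold (adjusted p = 0.457, edgeR quasi-likelihood test). The interval rests on a normal curve and is narrower than the edgeR test would give. Estimates of -0.63 or lower were found for 17.7% of all genes tested. The 5 gene models that share read-length windows with Nlrp4e held 15, 44 and 20 counts in KO 1, KO 2 and KO 3, against 114 counts in WT 1, nearly all in Gm8486. With their counts added to Nlrp4e, the log2 fold change was -0.65 and the adjusted p was 0.446.

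The 3 Nlrp9 genes had the highest estimates of the family and, relative to their means, the widest spread among KO libraries. NLRP9B is known in mice as a sensor of rotavirus RNA in intestinal epithelium, where it acts with the helicase DHX9, and all 3 genes are expressed in the mouse ovary. Nlrp9a had 232.2, 593.2 and 725 CPM in KO 1, KO 2 and KO 3, against 264.8 CPM in WT 1. Nlrp9b had 361.4, 725.5 and 981.8 CPM in KO 1, KO 2 and KO 3, against 499.2 CPM in WT 1. KO 1 was below WT 1 for both, while KO 2 and KO 3 were well above it. Nlrp9c followed the same order, with 572.3, 1001 and 1106 CPM in KO 1, KO 2 and KO 3, against 603.1 CPM in WT 1. The levels of Nlrp4a, Nlrp4b and Nlrp14 were in this order as well.

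None of these differences passed the test. The log2 fold change was 0.96 ± 0.55 (SE) for Nlrp9a, with an approximate 95% interval of -0.11 to 2.04 and an adjusted p of 0.495. This interval, too, rests on a normal curve and is narrower than the edgeR test would give. Estimates at least as high as that of Nlrp9a were found for 14.7% of all genes tested. For Nlrp9b it was 0.47 ± 0.48 (SE, adjusted p = 0.735), and for Nlrp9c 0.57 ± 0.40 (SE, adjusted p = 0.602). The KO means were 516.8 ± 255 CPM for Nlrp9a, 689.6 ± 312 CPM for Nlrp9b and 893.1 ± 283 CPM for Nlrp9c (SD, n = 3 each).

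**Figure D2:**
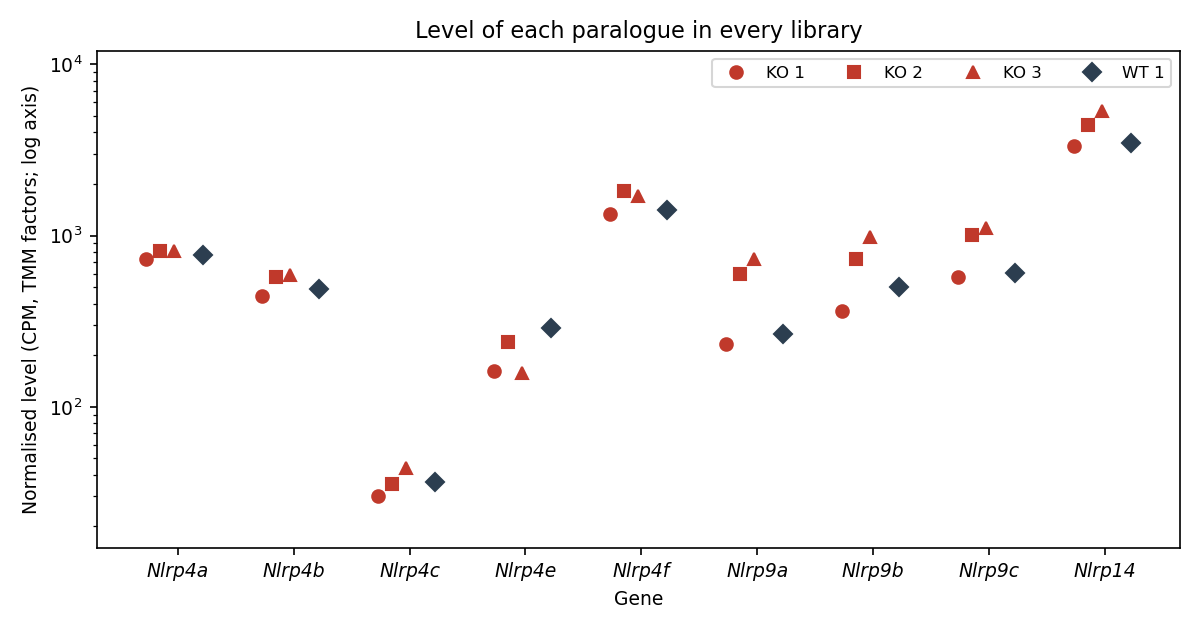
TMM-scaled CPM on a log axis for the 9 genes with reads, with red points for KO 1, KO 2 and KO 3 and a dark diamond for WT 1. KO 1 lies below WT 1 for all 9 genes, KO 2 and KO 3 lie furthest above it for the Nlrp9 genes, and for Nlrp4e all 3 KO points, at 157.3 to 238.9 CPM, lie below WT 1 at 288.1 CPM.

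**Figure D3:**
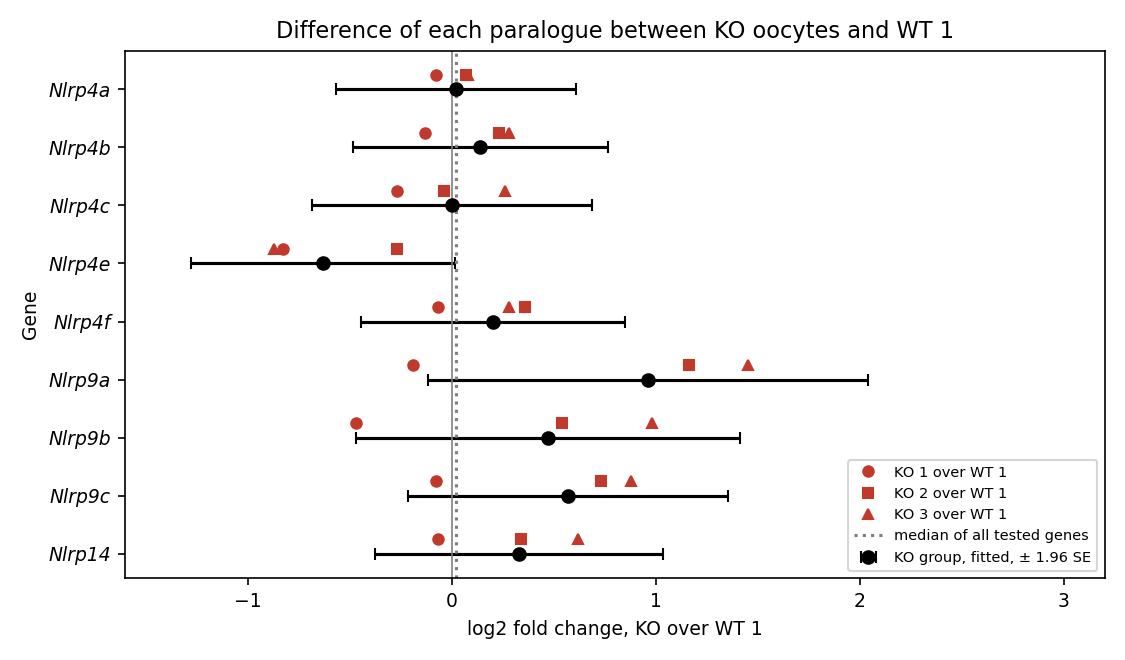
Log2 fold change of KO over WT 1 for each tested gene, with black points for the fitted KO group, bars for the approximate 95% interval and red marks for each KO library over WT 1. The bars rest on a normal curve and are narrower than the edgeR test would give. Every bar crosses 0, and the dotted line marks the median of all genes tested at 0.02.

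Adding the counts of a subfamily gives values that do not depend on how reads are split between its members. The Nlrp9 sum was 1166, 2320 and 2813 CPM in KO 1, KO 2 and KO 3, against 1367 CPM in WT 1 (log2 fold change 0.62 ± 0.46 SE, adjusted p = 0.618). The Nlrp4 sum was 2708, 3468 and 3319 CPM in KO 1, KO 2 and KO 3, against 2995 CPM in WT 1 (0.08 ± 0.32 SE, adjusted p = 0.944). In both sums WT 1 lay inside the KO range. All 10 genes together took 0.738%, 0.98% and 1.15% of counts in KO 1, KO 2 and KO 3, against 0.801% in WT 1 (95% Wilson interval 0.798% to 0.805%, counting error only). The KO mean of 0.956% ± 0.207 (SD, n = 3) exceeded WT 1 by 0.155 percentage points, with an exact two-sided permutation p of 0.75, where 1 library against 3 cannot give less than 0.25.

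The KO libraries did not behave alike. KO 2 and KO 3 were both above WT 1 and KO 1 for 7 of the 9 tested genes, against 26.7% of all genes tested, and KO 1 was below WT 1 for 9 of 9, against 49.8%. These patterns were chosen after the values were seen and get no test. All 3 KO libraries were above WT 1 for 0 of the 9 genes, against 29.1% of all genes. KO 2 and KO 3 also stood apart in other measures. The ribosomal RNA gene CT010467.1 took 1.49%, 0.554% and 0.565% of counts in KO 1, KO 2 and KO 3, against 2.47% in WT 1. The 82 ribosomal protein genes took 2.85%, 1.66% and 1.63% in KO 1, KO 2 and KO 3, against 2.59% in WT 1, and the 37 mitochondrial genes 0.394%, 0.214% and 0.235%, against 0.344% in WT 1. The part of these shares in the Nlrp values was not tested.

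KO 1 decided the calls. Without it, 5 of the 9 genes passed at an adjusted p below 0.05, and 28.1% of all genes tested then passed too (15.4% higher and 12.7% lower in KO). The spread within groups came only from KO 2 and KO 3 in that fit. These are the closest pair of libraries, and no variation among WT libraries entered, so the calls rest on the likeness of that pair. With KO 2 and KO 3 against WT 1, the log2 fold change was 1.32 for Nlrp9a, 0.81 for Nlrp9c and 0.78 for Nlrp9b. It was 0.49 for Nlrp14 and -0.54 for Nlrp4e. The log2 fold change was then 0.91 for the Nlrp9 sum and 0.47 for the sum of all 10 genes. Without KO 2, 0 of the 9 passed, against 2.43% of all genes, and without KO 3 also 0, against 2.89%.

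Ratios within a library need no scaling between libraries. The Nlrp9 counts over the Nlrp4 counts were 0.431, 0.669 and 0.848 in KO 1, KO 2 and KO 3, against 0.457 in WT 1. KO 1 was thus close to WT 1, and the groups overlapped. Nlrp9a over its neighbour Nlrp4a showed the same order, at 0.318, 0.732 and 0.888 in KO 1, KO 2 and KO 3, against 0.343 in WT 1. Within the Nlrp9 genes, Nlrp9a over Nlrp9c, the pair with the shared upstream sequence, was 0.406, 0.593 and 0.655 in KO 1, KO 2 and KO 3, against 0.439 in WT 1. WT 1 lay inside the KO range for that ratio. The same held for Nlrp9b over Nlrp9c, at 0.632, 0.725 and 0.887 in KO 1, KO 2 and KO 3, against 0.828 in WT 1.

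Nlrp4e over Nlrp4f was below WT 1 in every KO library, at 0.121, 0.132 and 0.092 in KO 1, KO 2 and KO 3, against 0.204 in WT 1. With 1 library against 3, this separation cannot be tested below 0.25. Nlrp4e itself was below WT 1 in every KO library, and the ratio was not among the comparisons planned. In level, 29.2% of all genes tested were below WT 1 in every KO library and 29.1% above it. The share of other gene pairs with such a ratio was not computed. Nlrp14 over Nlrp4f, the ratio of the most abundant pair, was 2.49, 2.45 and 3.14 in KO 1, KO 2 and KO 3, against 2.48 in WT 1, with WT 1 inside the KO range. Nlrp14 made 46.29%, 43.37% and 46.7% of the family's counts in KO 1, KO 2 and KO 3, against 44.48% in WT 1, and Nlrp4f made 18.6%, 17.72% and 14.87%, against 17.96% in WT 1.

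**Figure D4:**
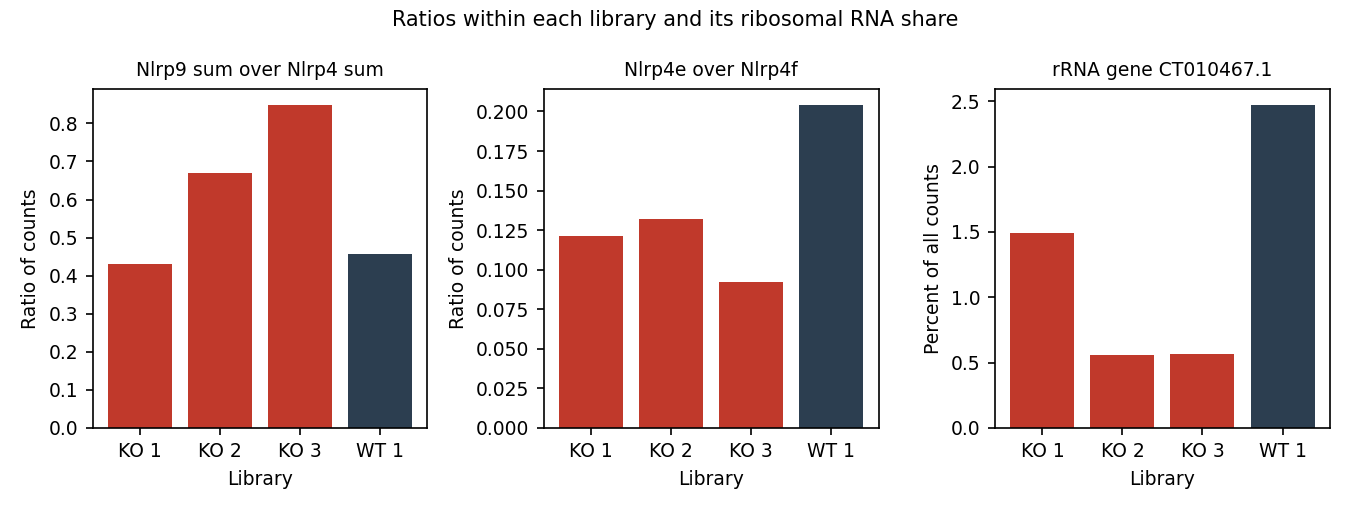
Bars for KO 1, KO 2, KO 3 (red) and WT 1 (dark) show, from left to right, Nlrp9 counts over Nlrp4 counts, Nlrp4e counts over Nlrp4f counts and the percent of all counts in the ribosomal RNA gene CT010467.1. KO 2 and KO 3 are highest in the left panel at 0.669 and 0.848, WT 1 is highest in the middle panel at 0.204, and KO 2 and KO 3 are lowest in the right panel.

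Levels of different genes were compared as CPM per kilobase of exon, with the exon lengths of the count table. Nlrp14 was at 1239 ± 288 CPM per kilobase in KO oocytes (SD, n = 3) and 987.9 in WT 1, and Nlrp4f at 418.9 ± 63.8 in KO oocytes and 364.5 in WT 1. Both were in these places in all 4 libraries, and their KO ranges were clear of the next gene. Behind them came Nlrp9b at 185.2 ± 83.7 CPM per kilobase in KO oocytes and 134.1 in WT 1, and Nlrp4a at 162.4 ± 9.92 in KO oocytes and 159.7 in WT 1. Nlrp9c was at 150.5 ± 47.6 in KO oocytes and 101.6 in WT 1, Nlrp9a at 148.4 ± 73.3 in KO oocytes and 76.0 in WT 1, and Nlrp4b at 119.2 ± 17.8 in KO oocytes and 108.3 in WT 1. The KO range of each Nlrp9 gene overlapped those of the other Nlrp9 genes, of Nlrp4a and of Nlrp4b, while Nlrp4a was above Nlrp4b in every library. The order of these 5 differed between libraries. Nlrp4a was the third gene in KO 1 and WT 1 but the sixth in KO 2 and KO 3, where the 3 Nlrp9 genes passed it. Nlrp4e was at 54.7 ± 13.5 in KO oocytes and 84.7 in WT 1. It was below these 5 within each KO library but above Nlrp9a in WT 1, and its KO range overlapped that of Nlrp9a, which was at 66.7 in KO 1 where Nlrp4e reached 70.3 in KO 2. Nlrp4c, at 9.08 ± 1.70 in KO oocytes and 9.07 in WT 1, was the lowest gene with reads in all 4 libraries. The exon length of Nlrp9c in the table, 5935 bases, exceeds its main transcript of 3216 bases, and by transcript length Nlrp9c took the third place at 277.7 CPM per kilobase (KO mean).

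**Figure D5:**
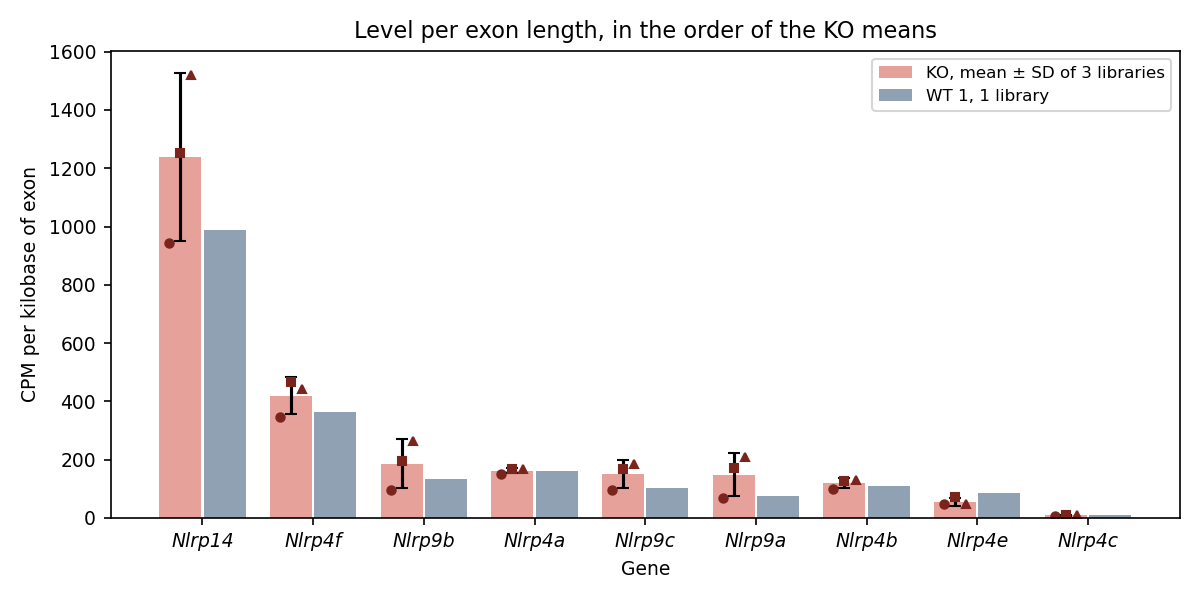
CPM per kilobase of exon for the 9 genes with reads, with pale red bars for the KO mean, error bars for the SD of 3 libraries, dark red marks for each KO library and blue-grey bars for the single WT 1 library. Nlrp14 at 1239 in KO and 987.9 in WT 1 and Nlrp4f at 418.9 in KO and 364.5 in WT 1 stand above the rest, and Nlrp4c is lowest.

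Genes without reads were common in the whole table, where 28291 of 55291 genes had any count in these 4 libraries. A lack of reads is therefore not particular to the surroundings of the family. Within 200 kb of the family lay 160 other genes. Of these, 88 had 0 counts in all 4 libraries and 20 had a mean of at least 1 CPM. The 11 olfactory and 34 vomeronasal receptor genes among them all had a mean below 1 CPM. The only neighbour of at least 100 CPM was Nlrp5, beside Nlrp4e, at 1534, 1522 and 1937 CPM in KO 1, KO 2 and KO 3, against 1459 CPM in WT 1 (log2 fold change 0.19 ± 0.32 SE, adjusted p = 0.845). Nlrp5 encodes MATER, a core protein of the subcortical maternal complex. Among the gene models, exons of Nlrp9b overlapped by 136 bases with Gm18877 on the same strand, and no other gene of the family overlapped exons of another gene.

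Other NLR genes together took 0.204%, 0.204% and 0.261% of counts in KO 1, KO 2 and KO 3, against 0.198% in WT 1. Of 22 relatives listed, 10 were tested, 0 passed, and their median log2 fold change was 0.14. Nlrp2, another oocyte NLRP, had 325.1, 419 and 484.8 CPM in KO 1, KO 2 and KO 3, against 336.9 CPM in WT 1 (log2 fold change 0.28, adjusted p = 0.772). The lowest p in the list was that of Nlrc4, the adaptor of the NAIP sensors of bacterial proteins, at 18.2, 43.2 and 23.7 CPM in KO 1, KO 2 and KO 3, against 11.9 CPM in WT 1 (1.26 ± 0.52 SE, adjusted p = 0.328). Next was Nod2, a sensor of bacterial wall fragments, at a log2 fold change of 0.46 and an adjusted p of 0.702. Nlrp4g, a transcribed pseudogene on chromosome 9 that shares 50-base windows with Nlrp4f, had 41.2, 79.1 and 74.9 CPM in KO 1, KO 2 and KO 3, against 55.3 CPM in WT 1 (adjusted p = 0.847). The immune sensor Nlrp3 had 2, 1 and 2 counts in KO 1, KO 2 and KO 3, against 10 counts in WT 1, and was not tested.

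Inflammasome parts were uneven in level. Of 13 inflammasome adaptors and effectors, 8 were tested and 0 passed (median log2 fold change 0.37). Pycard, the adaptor ASC that links a pyrin domain to caspase-1, had 0, 2 and 2 counts in KO 1, KO 2 and KO 3, against 2 counts in WT 1, and the cytokine gene Il1b had 0 in every library. Casp8, an initiator caspase of cell death, had 27.9, 45.2 and 44.8 CPM in KO 1, KO 2 and KO 3, against 19.5 CPM in WT 1. All KO libraries were above WT 1, a pattern shared by 29.1% of all genes tested. The difference of 1.02 ± 0.40 (SE) missed the threshold (adjusted p = 0.311), as did that of Nek7, a kinase that licenses NLRP3, at 0.87 ± 0.39 (SE, adjusted p = 0.371).

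Of 7 genes whose proteins have been reported to bind NLRP4 (human protein), NLRP9 or NLRP14, 6 were tested and 0 passed (median -0.14). The gene not tested, Slc8b1, had 0, 0 and 2 counts in KO 1, KO 2 and KO 3, against 0 counts in WT 1. Uhrf1, which guides maintenance DNA methylation, had 613, 432.9 and 444.7 CPM in KO 1, KO 2 and KO 3, against 639.6 CPM in WT 1 (log2 fold change -0.36 ± 0.32 SE, adjusted p = 0.690). Dhx9, the RNA helicase that works with NLRP9B, had 4.87, 2.77 and 2.39 CPM in KO 1, KO 2 and KO 3, against 5.18 CPM in WT 1 (-0.65 ± 0.53 SE, adjusted p = 0.662). For Uhrf1 and Dhx9 every KO library was below WT 1, a pattern shared by 29.2% of all genes tested.

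The 7 genes of the subcortical maternal complex were all tested and 0 passed (median 0.19). Khdc3, which encodes the complex protein FILIA, had 156.6, 157.1 and 174.9 CPM in KO 1, KO 2 and KO 3, against 342 CPM in WT 1 (log2 fold change -1.07 ± 0.28 SE, adjusted p = 0.108). Tle6, a scaffold of the complex, had 1701, 2670 and 2852 CPM in KO 1, KO 2 and KO 3, against 1554 CPM in WT 1 (0.63 ± 0.38 SE, adjusted p = 0.518). Among oocyte markers the lowest p-values were those of the oocyte transcription factor genes Figla (-0.63 ± 0.30 SE, adjusted p = 0.407) and Nobox (0.53 ± 0.38 SE, adjusted p = 0.609).

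Markers of other cells in the follicle took a small share of counts. The 12 granulosa and cumulus markers together took 0.00953%, 0.00959% and 0.00839% of counts in KO 1, KO 2 and KO 3, against 0.0065% in WT 1, and 6 of them were tested with 0 passing (median 0.34). Cyp19a1, the aromatase gene, had 35.1, 46.1 and 35.3 CPM in KO 1, KO 2 and KO 3, against 13.9 CPM in WT 1 (log2 fold change 1.48 ± 0.38 SE, adjusted p = 0.0967), and Hsd17b1, a steroid dehydrogenase gene, had at most 0.501 CPM in any library (-2.03 ± 1.36 SE, adjusted p = 0.573). Nr5a2, the gene of a nuclear receptor of granulosa cells, had 47.1, 46.2 and 36.8 CPM in KO 1, KO 2 and KO 3, against 42.4 CPM in WT 1, and Kitl, the gene of KIT ligand, had 7.71, 6.16 and 9.68 CPM in KO 1, KO 2 and KO 3, against 5.47 CPM in WT 1. The other 9 markers besides Cyp19a1, Nr5a2 and Kitl had at most 2.03 CPM in any library. Among them Foxl2 had 2, 0 and 0 counts in KO 1, KO 2 and KO 3, against 6 counts in WT 1, and Ptx3 had 0 in every library. The part of these markers in the Nlrp values was not tested. The 7 blood and macrophage markers took at most 0.000616% of counts, 2 were tested (Cd68 and Csf1r, adjusted p 0.555 and 0.696, median 1.22), and Ptprc had 0, 2 and 0 counts in KO libraries and 0 in WT 1.

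The genes whose pattern over the 4 libraries was most like that of the summed family were Armc8, Cmpk1 and Naprt, with root mean square differences in centred log2 CPM of 0.00859, 0.0230 and 0.0250 among 9029 candidates of at least 5 CPM. Armc8, the gene of a subunit of the CTLH ubiquitin ligase, had 53.4, 76.1 and 85.4 CPM in KO 1, KO 2 and KO 3, against 57.6 CPM in WT 1. With 4 libraries many genes come close to any pattern, so this likeness is a description.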

How the data were processed

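The authors deposited a table of raw read counts per gene for 5 libraries, with exon lengths and mm10 gene models. Per the submitters' processing notes, Trim Galore 0.6.7, STAR 2.7.10a, featureCounts 2.0.2 and DESeq2 were used with mm10, and the labels give paired reads of 151 bases. The sources used here do not state strandedness or the treatment of reads with several matches. Counts were used as deposited. Of 55291 genes, 17799 passed filterByExpr and were tested with edgeR 4.0.16 (TMM factors, robust quasi-likelihood test) in R 4.3.3, KO 1 to KO 3 against WT 1, with Benjamini-Hochberg adjustment over all genes tested and a threshold of 0.05. The 12 other settings tried include DESeq2 1.42.0 and limma-voom (limma 3.58.1), and 1 more, adding to Nlrp4e the counts of gene models that share windows with it, was chosen after seeing the data. The fitting code was tested on simulated data.

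Totals of 12038990 to 26770521 counts make 3 counts worth 0.112 to 0.249 CPM, and Wilson intervals cover counting error only. Samples were grouped by their titles, which give no batch. WT 3 was not analysed here. The genes and lists were chosen with earlier results of these data known. All 10 genes are named, and of each list the members that passed or otherwise the 2 with the lowest p. Other list genes (Nlrp2, Nlrp3, Nlrp4g, Pycard, Il1b, Slc8b1, Gdf9, Zp3, Foxl2, Nr5a2, Kitl, Ptx3, Ptprc) were added as background after their values were seen. Promoter windows are from RefSeq (GRCm38.p6). Coding sequences and windows shared between transcripts are from GENCODE M21, whose coordinates for the 10 genes equal those of the table; windows were compared between transcripts only, not with the genome. Deviations of same-numbered KO and WT libraries from their group means correlated at 0.01 and -0.03. The WT mean includes the WT 2 column, so these values cannot show whether equal numbers mark a pairing.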

Additional observations from a re-analysis of the deposited data

How the results depend on the processing

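Of all results, the calls depended most on KO 1. Leaving out each KO library in turn gave 425 to 4923 genes called, 0 to 5 of the family called, 0.36 to 0.91 for the Nlrp9 sum and 0.15 to 0.47 for the sum of all 10 genes (log2 fold change), with the upper end of each range without KO 1, and 0.0579 to 0.264 percentage points for the share of counts. Leaving out WT 1 was not run, since no WT library would remain in the comparison. Genes called numbered 868 with no filter on low counts, 126 with a mean of at least 5 CPM and 688 with DESeq2, against 344. With no filter on low counts, the log2 fold change of Nlrp9a was 0.98, against 0.96 in the main fit. Its unadjusted p then fell below 0.05 by the edgeR test, while its adjusted p still missed the threshold. The sign of Nlrp4a and Nlrp4c, both near 0, was not stable. Nlrp4a was at -0.01 with library size alone, at -0.01 with at least 5 CPM and between 0 and 0.08 with a KO library left out, and Nlrp4c was at -0.04, at -0.03, at 0 with limma-voom and between -0.15 and 0.13 with a KO library left out.

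With WT 2 added, edgeR called 0 genes, 1050 having an unadjusted p below 0.05, and the log2 fold change of Nlrp4e was 0.37. With WT 2 and the replicate number as a block, 0 genes were called, 1 had an unadjusted p below 0.05, and Nlrp4e was at 5.23, the Nlrp4 sum at 2.77, the Nlrp9 sum at 4.85 and the sum of all 10 genes at 3.53 (adjusted p = 0.992). The labels do not say that equal numbers mark a shared animal or day. In both of these fits 0 of the 9 tested genes of the family were called, and 0 had an unadjusted p below 0.05. Depth does not limit the 9 genes with reads, each with at least 372 counts in the 4 libraries compared, while the single WT library limits every comparison.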

Other observations

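The WT 2 column gave reads to 3 of the 10 genes only. Nlrp4a had 299 counts, Nlrp9c 10 and Nlrp4c 4, of 3785574 in the column, and Nlrp14, at 83677 counts in WT 1, had 0. The share of counts in the family was 0.00827% in that column. Because the column does not follow the gene models, these counts are not levels of the genes in WT oocytes.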
